A study of Rattus norvegicus with 12 samples.

Results

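The genes described here are 9 complement components, C1qa, C1qb, C1qc, C1r, C1s, C2, C3, Cfb and C5ar1, in rat skull bone sampled early after surgery. They were found as probes whose gene name in the array files equals one of these symbols, which gave 10 probes of the 45598 on the array. One probe was used for each gene, the one with the highest mean log2 signal over the 12 arrays, and the further probe of C1s is given beside it. All 9 members were well above background on all 12 arrays, and so were among the 22979 genes tested.

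Complement is a cascade of plasma proteins that marks microbes and damaged tissue for removal. In the classical pathway the recognition molecule C1q, built from the A, B and C chains encoded by C1qa, C1qb and C1qc, binds its target and carries the proteases C1r and C1s. C1s cleaves C4 and C2, whose fragments form an enzyme that cleaves C3, the component on which all routes converge. Factor B, encoded by Cfb, is the counterpart of C2 in the alternative pathway, and C5ar1 is the receptor through which leukocytes sense the fragment C5a. The liver makes most plasma C3 and factor B, while C1q comes mainly from macrophages and dendritic cells.

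The arrays came from the calvaria (the roof of the skull) of rats 10 weeks old, taken 6 h after surgery. In the laser group a rectangular defect of 8 × 3 mm was cut in 3 strokes with a contact-tip laser at an output of 127 mJ per pulse and 20 Hz. In the bur group the same defect was drilled with a bur. In the control group the periosteum, the membrane over the bone, was stripped and the bone left uncut, so all 3 groups had periosteal surgery and an untouched skull is not among them. Each group had 4 one-colour arrays hybridised with Cy3-labelled RNA, made from 200 ng of total RNA. The labels do not say whether each array came from a separate animal, and a p-value here speaks only of the spread among these arrays, which may be technical. In a piece of tissue, fewer cells of a type and less RNA per cell cannot be told apart.

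Between 67.8% and 73.7% of spots on an array were well above background, and 0 spots were saturated. Bone markers were present as the label says: all 8 genes of the osteoblast and osteocyte list, such as Bglap and Dmp1, were well above background on all 12 arrays. All 4 control arrays shared 1 slide. The treated arrays shared 2 further slides, with replicates 1 and 2 of laser and bur on slide 1 and replicates 3 and 4 on slide 2. Treatment therefore cannot be told apart from slide or scan in any comparison with control. The median log2 signal of the spike-in controls, which are meant to be added in fixed amounts, was 3.49 higher on treated than on control arrays before scaling. The 75th percentile of the signal differed far less, at 197 to 227 on control arrays and 204 to 383 on treated arrays. The cause of the spike-in gap was not tested. Values below are log2 signals minus the 75th percentile of their array, called scaled log2 signals, and a difference of 1 is a 2-fold change. The levels of different probes cannot be ranked against each other on this scale.

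C3 was lower than in control bone after both treatments, by 2.63-fold after laser and 2.47-fold after bur drilling, and C1qa was 1.45-fold lower after laser. No other member passed the test in any comparison. Of the 9 members, 2 were called lower and 0 higher in laser against control bone, where 49.8% of all genes tested were called (17.6% lower and 32.2% higher). In bur against control bone 1 member was called lower and 0 higher, where 51% of all genes were called (18.3% lower and 32.7% higher). The share of members called was below that of all genes in both comparisons. A call is an adjusted p under 0.05 in limma's moderated test across all genes with Benjamini-Hochberg adjustment. At an unadjusted p under 0.05, 3 members were lower after laser, 1 was lower after bur, and 0 were higher in either.

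Between laser and bur, 0 of the 9 members were called by limma, as against 0.00435% of all genes (1 gene). At an unadjusted p under 0.05 the count was 1, Cfb. The 95% intervals of the differences between laser and bur ran, over the 9 members, from -1.45 to 0.77 on the log2 scale, so differences of that size are not shown to be absent.

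The median log2 difference of the 9 members was -0.41 after laser, -0.11 after bur and -0.11 between laser and bur, beside medians over all genes of 0.21, 0.23 and 0.011. After laser 8 of 9 members lay below 0, as did 40.0% of all genes. Among them C1s, C2 and C5ar1 were at only -0.025, -0.022 and -0.025. Over other settings C1s ran from -0.70 to 0.64 and C2 from -0.31 to 0.054, so the signs behind this count were not stable. After bur 5 of 9 lay below 0, with 39.2% of all genes, and between laser and bur 8 of 9, with 48.2%. Signs between laser and bur turned too, with C1qa from -0.50 to 0.28 over other settings. Laser and bur were compared with the same 4 control arrays, so the values of the 2 treatments are not independent of each other. The median over all genes depended on the normalization and the background correction: with quantile normalization it was 0.092 after laser and 0.11 after bur, and with normexp background correction it was 0.026 after laser and -0.0061 after bur, and 4853 genes were then called higher and 4554 lower after bur, as against 7525 and 4203 in the main fit. With the authors' deposited normalized values these counts were 5496 and 4671.

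**Figure D1:**
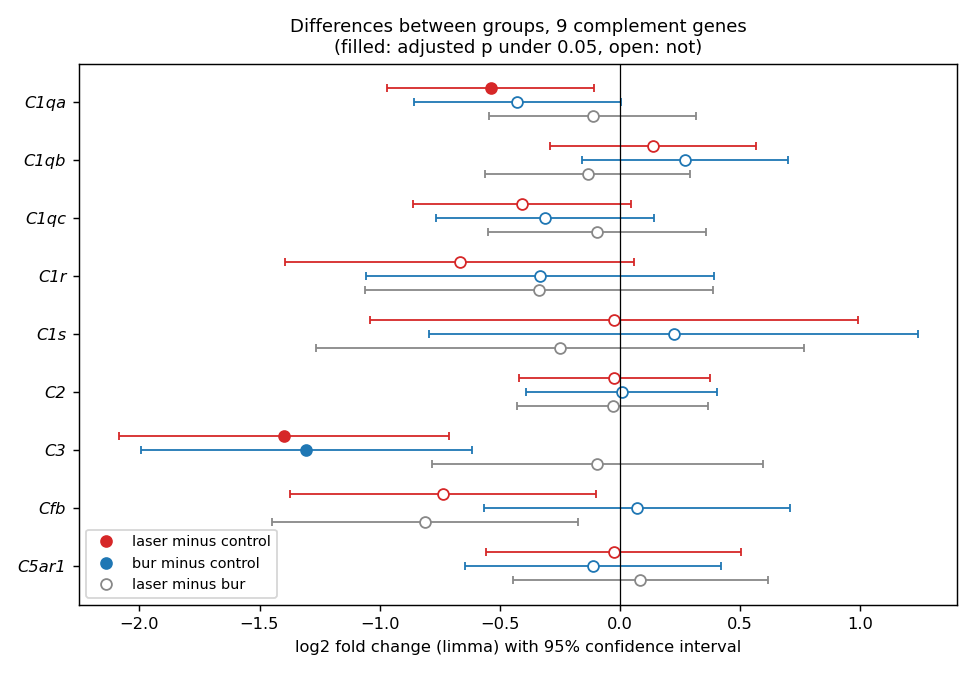
Log2 fold change of each of the 9 complement genes with its 95% confidence interval from limma, for laser minus control (red), bur minus control (blue) and laser minus bur (grey); filled points have an adjusted p under 0.05. C3 lies below 0 in both comparisons with control and C1qa in laser minus control, and the other intervals are open points.

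C3 is the central component, and its probe was the only member to fall after both treatments. The probe is a single spot on each array and starts at base 4797 of the transcript, and its sequence is shown because this value carries the main difference:
C3 probe: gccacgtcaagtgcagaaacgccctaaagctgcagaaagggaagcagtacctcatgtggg
The array design placed it on an unassigned contig of RGSCv3.4 (rn4). The 4 control arrays had scaled log2 signals of 3.54, 3.80, 3.43 and 3.72. The bur arrays had 1.94, 2.06, 3.22 and 2.04, and the laser arrays 1.48, 2.51, 2.26 and 2.65. Every treated array lay below every control array. The third bur array stood nearest to the control arrays and well above the other bur arrays.

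The mean C3 signal was 3.62 ± 0.17 in control, 2.32 ± 0.61 in bur and 2.22 ± 0.52 in laser bone (SD, n = 4). The log2 difference from control was -1.40 (SE 0.31) after laser, with an adjusted p of 0.0043 by limma, and -1.30 (SE 0.31) after bur, with an adjusted p of 0.0061. The two-sided exact permutation p was 0.0286 in both comparisons, which is the smallest that 4 against 4 arrays allow, and 0.257 after adjustment over the 27 such tests. Groups of 4 without overlap were found for 48.6% of genes after laser and for 46% after bur. Treated arrays of slide 1 alone gave -1.63 after laser and -1.62 after bur, and those of slide 2 alone gave -1.17 and -0.99, all of them called. Laser and bur differed by -0.093 (95% interval -0.78 to 0.59).

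The 250 bases before the annotated C3 start hold 1 match to the binding motif of the C/EBP family, transcription factors known to drive C3 in the acute-phase response. The window is chr9:2201340-2201589 on the minus strand of GRCr8, from RefSeq, read toward the start, with the match in capitals:
C3 upstream: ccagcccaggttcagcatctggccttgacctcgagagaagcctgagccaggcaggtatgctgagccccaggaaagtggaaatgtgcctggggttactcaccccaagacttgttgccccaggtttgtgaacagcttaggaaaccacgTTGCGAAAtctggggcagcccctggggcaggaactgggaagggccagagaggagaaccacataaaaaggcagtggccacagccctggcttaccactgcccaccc
The match spans bases -104 to -97 from the start. The motif was searched as TTGCNNAA on both strands, and 9.22% of the 33465 upstream windows of the same length in the RefSeq table hold it. The other 5 motifs searched had 0 matches there. They were STAT (TTCNNNGAA, in 7.67% of windows), AP-1 (TGANTCA, 6.34%), ETS (GAGGAAGT, 2.04%), IRF (3.41%) and NF-kB (4.36%). A match is a description of letters and does not show binding.

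**Figure D2:**
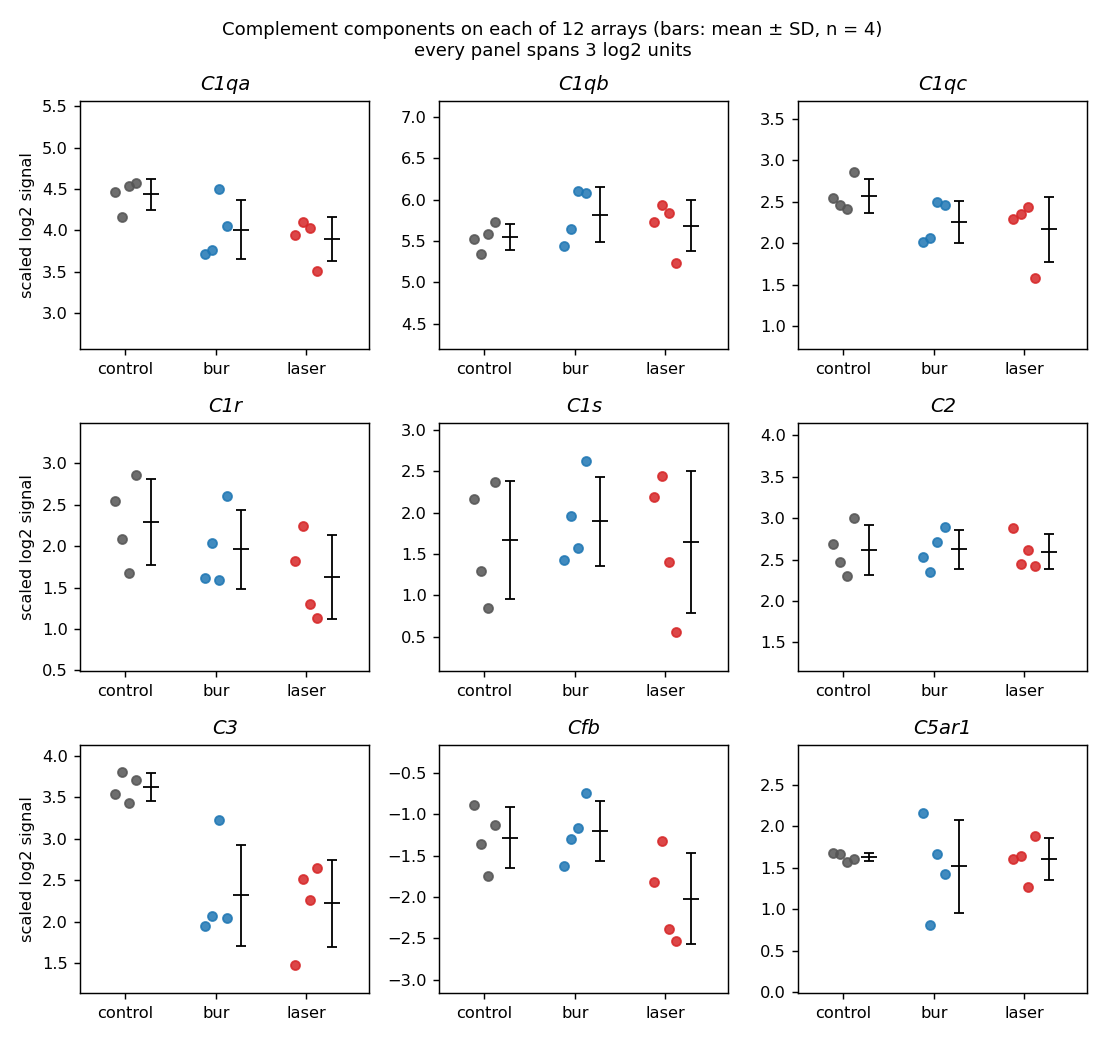
Scaled log2 signal of each complement gene on each of the 12 arrays, with the mean and SD of each group of 4; every panel spans 3 log2 units, but the panels start at different levels. C3 is the panel in which both treated groups lie wholly below control, while C1s, C2 and C5ar1 overlap throughout.

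In the main fit the mean changes of the 3 chains of C1q, the recognition molecule, differed in sign. C1qa was lower after laser, C1qc was lower by an amount that did not pass, and C1qb was on average a little above control. The 3 genes are neighbours on chromosome 5, and the probes lie at chr5:155662578-155662637 (C1qa), chr5:155656638-155656697 (C1qc) and chr5:155647530-155647589 (C1qb) of rn4, all on the minus strand. The C1qb probe starts at base 1028 of its transcript, and the sequences of the probes for the A and C chains, which start at bases 697 and 435, are shown as the chains that stood on the other side of it:
C1qa probe: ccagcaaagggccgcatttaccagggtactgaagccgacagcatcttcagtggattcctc
C1qc probe: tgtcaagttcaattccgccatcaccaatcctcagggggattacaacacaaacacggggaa
Each C1qa and C1qb value is the mean of 9 or 10 spots on an array, and each C1qc value comes from 1 spot.

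For C1qa the control arrays had scaled log2 signals of 4.46, 4.17, 4.54 and 4.57. The bur arrays had 3.72, 3.76, 4.50 and 4.06, and the laser arrays 3.94, 4.10, 4.03 and 3.51. All 4 laser arrays lay below all 4 control arrays, while the third bur array lay within the control range. The difference was -0.54 (SE 0.20) after laser, with an adjusted p of 0.0404 by limma, and -0.43 (SE 0.20) after bur, with an adjusted p of 0.0892. The exact permutation p was 0.0286 after laser and 0.0857 after bur (0.257 and 0.331 adjusted over 27 tests).

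The C1qa call after laser was close to the threshold. It was lost without control replicate 1, 3 or 4, without bur replicate 4, and without laser replicate 1, 3 or 4, with log2 differences from -0.58 to -0.41 and adjusted p from 0.0510 to 0.103 in those fits. With slide as a random block the adjusted p was 0.102, and treated arrays of slide 1 and of slide 2 alone gave -0.41 and -0.66, neither of them called. After bur the C1qa difference was -0.69 with treated arrays of slide 1, a call, and -0.16 with those of slide 2, not a call. Without bur replicate 3 it was -0.59, with an adjusted p of 0.0181.

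C1qc had 2.55, 2.46, 2.41 and 2.86 on the control arrays. Its bur arrays gave 2.01, 2.07, 2.49 and 2.47, and its laser arrays 2.30, 2.36, 2.43 and 1.58. The groups overlapped at their edges, and the fourth laser array was far below the other arrays. The C1qc difference was -0.41 (SE 0.21) after laser and -0.31 (SE 0.21) after bur, with limma adjusted p-values of 0.121 and 0.220.

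C1qb had 5.52, 5.34, 5.58 and 5.72 on the control arrays. The bur values were 5.43, 5.65, 6.10 and 6.08, and the laser values 5.73, 5.93, 5.83 and 5.24. Of the bur arrays 2 lay above the control range and 2 within it, and of the laser arrays 3 lay above it and 1 below. The difference was 0.14 (SE 0.19) after laser and 0.27 (SE 0.19) after bur, with limma adjusted p-values of 0.567 and 0.254. Its sign was not stable: with quantile normalization it was -0.17 after laser.

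Setting chains against each other within each array removes the scaling of the array. The difference C1qb minus C1qa was 1.06, 1.17, 1.05 and 1.15 on the control arrays, 1.72, 1.89, 1.61 and 2.02 on the bur arrays, and 1.79, 1.83, 1.80 and 1.73 on the laser arrays. The lowest treated array stood well above the highest control array. Only the change of this difference can be read, since its level depends on the probes. It rose by 0.68 (SE 0.038), or 1.60-fold, after laser and by 0.70 (SE 0.097), or 1.62-fold, after bur. The exact permutation p was 0.0286 in each, the smallest possible, and 0.0686 adjusted over 12 such tests, a family of pairs chosen after the values were seen. Between laser and bur it differed by -0.022 (exact permutation p = 0.857).

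With treated arrays of slide 1 alone and of slide 2 alone, C1qb minus C1qa changed by 0.70 and 0.65 after laser. After bur the changes were 0.69 and 0.71. Each is still set against control arrays on another slide. C1qb minus C1qc rose likewise, by 0.55 after laser and 0.59 after bur (exact permutation p = 0.0286 in each). C1qc minus C1qa moved by 0.13 and 0.11, with overlapping groups (exact permutation p = 0.314 and 0.371). In these pairs, chosen after the values were seen, the B chain stood apart from the A and C chains. Each C1qb difference from control had an exact permutation p of 0.0686 after adjustment over 12 tests. Among single genes, 48.6% after laser and 46% after bur had groups without overlap. The share among pairs of other probes was not tested, so a change peculiar to these chains is not shown. The probes lie at different places in their transcripts, as given above. The part of probe position or RNA quality in the C1qb differences was not tested.

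**Figure D3:**
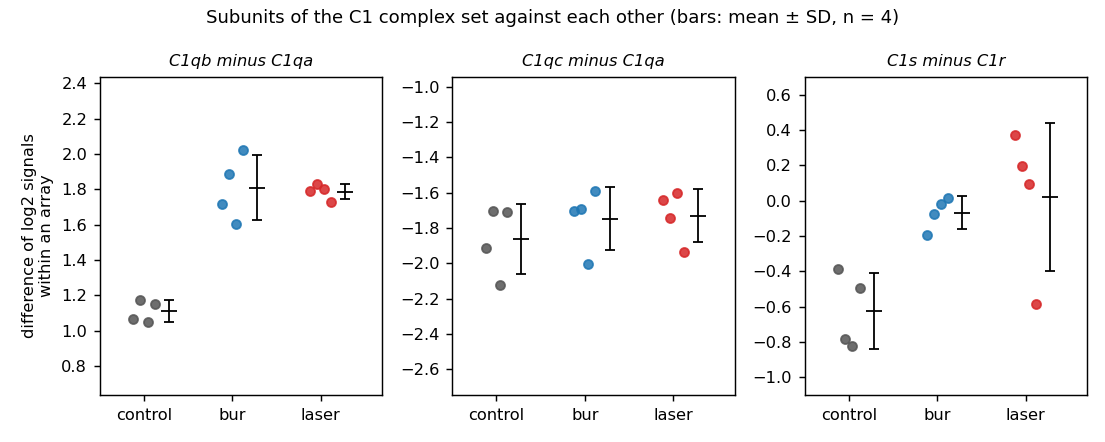
Difference between the log2 signals of pairs of C1 subunits within each array, for control, bur and laser bone, with the mean and SD of each group of 4; each panel has its own level. The difference C1qb minus C1qa is higher on every treated array than on any control array, C1qc minus C1qa overlaps, and C1s minus C1r is higher in bur bone and spread widely in laser bone.

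Upstream windows were in the RefSeq table for 4 of the 9 members, C1qa, C1qb, C1r and C3. The 250 bases before C1qa (chr5:154419934-154420183, minus strand, GRCr8) and C1qb (chr5:154407828-154408077, minus strand) are shown because these neighbouring genes moved apart:
C1qa upstream: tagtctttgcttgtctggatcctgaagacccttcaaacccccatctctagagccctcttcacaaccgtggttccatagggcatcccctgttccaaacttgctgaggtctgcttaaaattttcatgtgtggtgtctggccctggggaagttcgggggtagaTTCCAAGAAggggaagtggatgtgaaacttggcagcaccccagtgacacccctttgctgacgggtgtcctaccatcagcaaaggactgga
C1qb upstream: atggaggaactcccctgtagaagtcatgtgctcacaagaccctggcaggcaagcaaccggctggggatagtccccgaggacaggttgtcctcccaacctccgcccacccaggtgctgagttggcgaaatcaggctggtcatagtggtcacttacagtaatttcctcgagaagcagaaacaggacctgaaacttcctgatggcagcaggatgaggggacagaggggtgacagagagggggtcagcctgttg
The capitals in C1qa mark the STAT pattern at bases -90 to -82. The C1qb window had 0 matches to the 6 motifs, and the C1r window had 1, to the C/EBP pattern at bases -83 to -76.

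C1r and C1s encode the proteases carried by C1q, and both varied strongly within each group. C1r had 2.55, 2.08, 1.68 and 2.86 on the control arrays, 1.62, 2.04, 1.59 and 2.60 on the bur arrays, and 1.82, 2.24, 1.30 and 1.14 on the laser arrays. The groups overlapped, with the lowest values in laser replicates 3 and 4. The C1r difference was -0.67 (SE 0.33) after laser and -0.33 (SE 0.33) after bur, with limma adjusted p-values of 0.112 and 0.413.

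C1s had 2.16, 1.30, 0.85 and 2.37 on the control arrays, 1.42, 1.96, 1.57 and 2.62 on the bur arrays, and 2.19, 2.44, 1.40 and 0.55 on the laser arrays. The groups overlapped, and the laser arrays were spread more widely than the bur arrays. The difference was -0.025 (SE 0.46) after laser and 0.22 (SE 0.46) after bur, with limma adjusted p-values of 0.967 and 0.695. The further C1s probe shares 49 of its 60 bases with the first and gave -0.14 and 0.12, so the probes are no independent check of each other. The C1r and C1s probes lie near each other on chromosome 4 of rn4, at chr4:160728630-160728689 on the plus strand and chr4:160736725-160736784 on the minus strand.

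Within an array C1s rose against C1r by 0.55 (SE 0.12) after bur, with no overlap between bur and control arrays (exact permutation p = 0.0286, 0.0686 adjusted over 12 tests). After laser the change was 0.64 (SE 0.24), with overlap because the fourth laser array lay at -0.58, within the control range of -0.82 to -0.39 (exact permutation p = 0.0857).

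C2 and factor B supply the catalytic part of the enzymes that cleave C3. In the main fit C2 was among the members that changed least. Its group means were 2.61 ± 0.30 in control, 2.62 ± 0.23 in bur and 2.59 ± 0.21 in laser bone (SD, n = 4). Its difference from control was -0.022 after laser (95% interval -0.42 to 0.37) and 0.0078 after bur (-0.39 to 0.40), which leaves room for changes of that size. The groups overlapped throughout. The authors' deposited tables have C2 at -0.31 after laser and -0.28 after bur, neither with an adjusted p under 0.05.

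Cfb separated laser from bur more than any other member, without passing the test. The control arrays had -0.89, -1.36, -1.74 and -1.13, the bur arrays -1.62, -1.30, -1.16 and -0.75, and the laser arrays -1.82, -1.33, -2.39 and -2.53. Laser replicates 1, 3 and 4 lay below every control and bur array, and replicate 2 lay among them. The difference was -0.74 (SE 0.29) from control, with a limma adjusted p of 0.0537, and -0.81 (SE 0.29, 95% interval -1.45 to -0.17) from bur, with a limma adjusted p of 0.632 and an exact permutation p of 0.0571.

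Bur differed from control in Cfb by 0.074 (limma adjusted p = 0.839). The Cfb difference between laser and control was -0.29 with treated arrays of slide 1 and -1.18 with those of slide 2, and between laser and bur it was -0.11 and -1.51. In laser against control it passed in 5 of 15 other settings, namely with the arrays of slide 2 alone (limma adjusted p = 0.0145, the lowest), with the percentile taken over detected probes, with normexp background correction, with a filter that asks for detection on every array and with an intensity trend. It also passed without control replicate 3 (-0.89) and without laser replicate 2 (-0.97). The probes of C2 and Cfb are neighbours in rn4, at chr20:4071504-4071563 and chr20:4076976-4077119, both on the plus strand.

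C5ar1, the receptor for C5a on neutrophils and macrophages, had 1.68, 1.66, 1.57 and 1.61 on the control arrays, 2.16, 0.81, 1.66 and 1.43 on the bur arrays, and 1.61, 1.65, 1.27 and 1.89 on the laser arrays. The treated arrays scattered on both sides of a narrow control range. The difference was -0.025 after laser (95% interval -0.56 to 0.51) and -0.11 after bur (-0.64 to 0.42), with limma adjusted p-values of 0.937 and 0.710.

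The 2 treated slides differed in the direction of laser against bur. On slide 1 the C1q chains were 0.28 (C1qa), 0.29 (C1qb) and 0.29 (C1qc) higher in laser than in bur bone, and on slide 2 they were lower, at -0.50, -0.56 and -0.47. C1r went from 0.20 to -0.88 and C1s from 0.62 to -1.12, while C3 gave -0.010 and -0.18. None of these values was called, and each rests on 2 arrays against 2.

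Over the 8 treated arrays the C1q chains varied together, as did C1r and C1s, among 36 pairwise correlations. C1qb and C1qc had a Pearson r of 0.94 and a Spearman rho of 0.98 (exact permutation p = 0.0062 and 0.0071, adjusted over 36 pairs), and r was 0.86 without the 2 arrays farthest from the median. C1qa and C1qb had r = 0.91 and rho = 0.98 (adjusted exact permutation p = 0.0134 and 0.0071), and r = 0.91 without the 2 farthest. The permutation treats the 8 arrays as exchangeable, though they come from 2 treatments on 2 slides. On these 8 arrays the 3 chains varied together. Over all 12 arrays r was 0.38 for C1qa and C1qb, 0.51 for C1qb and C1qc and 0.87 for C1qa and C1qc. How often pairs of other genes reach such values was not tested.

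C1r and C1s had r = 0.93 and rho = 0.95 (adjusted exact permutation p = 0.0134 and 0.0137), and r = 0.89 without the 2 farthest. Cfb had r = 0.86 with C1r and 0.77 with C1s, with rho of 0.71 in each (adjusted exact permutation p for rho = 0.345), falling to 0.64 and 0.37 without the 2 farthest arrays. These groups were not separate, since C1qb had r = 0.70 with C1s and 0.67 with Cfb. C3 had r between -0.38 and 0.44 with the other members, and C5ar1 between -0.37 and 0.13. The points share arrays, scaling and slide, and groups or slides of 4 arrays are too few to give these values within each.

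The genes whose signal over the 12 arrays was most like that of C3 were Galc (r = 0.99), Itgb3 (r = 0.99) and FQ232187 (r = 0.99), values that include the gap between control and treated arrays. Over the 8 treated arrays they were Galc (r = 0.99), Haspin (r = 0.99) and Mphosph9 (r = 0.98). For C1r they were C8g (0.92), C4b (0.91) and Bmp6 (0.90) over 12 arrays, and Tmem198b (0.98), Ski (0.98) and RGD1561715 (0.97) over 8.

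For C1qb the nearest were ENSRNOT00000074966 (0.87), Cebpd (0.86) and Gsta6 (0.86) over 12 arrays, and the unnamed probe A_44_P382114 (0.98), Man2a1 (0.98) and Isyna1 (0.96) over 8. For Cfb they were Slc2a9 (0.92), Mocs1 (0.92) and Slc15a2 (0.90) over 12, and Slc15a2 (0.98), Ttc28 (0.97) and Maml2 (0.97) over 8. These are the highest of 22979 values, so they describe the arrays and nothing more.

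Beyond the 9 members, 5 lists of other complement genes held 47 symbols, of which 39 were on the array and 31 were tested. In laser against control bone 4 rose and 13 fell, 17 of 31 in all, with a median log2 difference of -0.31. Of all genes, 49.8% were called, 17.6% lower and 32.2% higher. In bur against control bone 6 rose and 12 fell, 18 of 31, with a median of -0.24. Of all genes, 51% were called, 18.3% lower and 32.7% higher. Counted in both directions, the shares called were near those of all genes. By direction they were not: more of the 31 fell than rose, while of all genes more rose than fell. Between laser and bur 0 of 31 passed in limma, and 0 had an unadjusted p under 0.05. Without control replicate 4 the count called after bur was 11 in place of 18.

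In the recognition and lectin list 5 of 6 tested genes fell after laser and 4 of 6 after bur, and 0 rose. Of all genes, 17.6% and 18.3% were called lower. Fcnb and Fcna, the ficolins that recognise sugars on microbes, fell by 1.30 and 1.09 on the log2 scale after laser and by 1.68 and 1.14 after bur. Colec11, a collectin of the same pathway, fell by 0.93 and 0.59. C4a, the component cleaved by C1s, fell by 1.45 and 1.11. C4a and C4b are near-identical copies whose probes may share signal: C4b, named after its values were seen, fell by 1.05 after laser and was at -0.60 after bur, where it did not pass, while its further probe fell by 1.67 after laser and 1.57 after bur. The calls after bur for Colec11 and C4a were lost in 6 and 3 of the 12 fits that left out 1 array.

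The alternative and terminal list was mixed, with 2 of 8 higher and 3 lower after laser, and 2 higher and 2 lower after bur. Counted in both directions, these shares were near those of all genes, 49.8% and 51%. By direction, 17.6% and 18.3% of all genes were lower and 32.2% and 32.7% higher. Cfp, or properdin, which stabilises the alternative pathway's enzyme, fell by 1.23 in both comparisons. Its control arrays lay between 1.83 and 2.05, the bur arrays from 0.29 upward but below every control array, and the laser arrays between 0.12 and 1.04, with no overlap. C6 fell by 1.53 and 1.61, a call lost in 5 of 12 fits without 1 array in each comparison. In the main fit C5 was at least 2.39-fold higher after laser and at least 2.36-fold higher after bur. Its probe was not well above background on any control array. Each bound takes the higher of that probe's signal and the lowest signal well above background on each control array. Over 14 other settings the C5 log2 difference went as low as 0.17 after laser and 0.080 after bur. Each C5 call was lost in 1 of those settings. C8b, well above background on 1 of 4 control arrays, was 1.70 higher after laser and 1.71 after bur, differences that rest on control signals mostly not above background. Each of these calls was lost in 2 of 12 fits without 1 array.

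Of the 6 fluid-phase regulators tested, 0 passed in limma after laser, 2 rose after bur, and 0 fell in either. Of all genes, 32.2% were called higher after laser and 32.7% after bur. At an unadjusted p under 0.05, 2 were higher after laser and 3 after bur. Cfi, a protease that inactivates C3b, rose by 0.61 after bur and was at 0.47 after laser, where it did not pass. Cpn1 rose by 1.28 after bur and was at 1.18 after laser, where it did not pass. The bur arrays had 6.43 and 6.40 on slide 1 but 5.15 and 4.85 on slide 2. The laser arrays had 6.54 and 6.40 on slide 1 but 4.68 and 4.81 on slide 2. Control arrays lay between 4.19 and 4.79. The bur calls of Cfi and Cpn1 were lost in 5 and 6 of the 12 fits without 1 array, and in 3 and 8 of 15 other settings.

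Of the 4 membrane regulators tested, which protect host cells from complement, 2 rose and 1 fell after laser and 2 rose and 2 fell after bur. In all, 49.8% and 51% of genes were called, 17.6% and 18.3% lower and 32.2% and 32.7% higher. Cd46 rose by 1.02 and 1.26, while its further probes gave 0.30, which did not pass, and 0.45 after laser, and 0.78 and 0.91 after bur. Cd55 and Cr1l have probes that disagree in sign: the Cd55 probe used rose by 0.90 and 0.51, while of its 3 further probes 2 fell after bur, by 0.80 and 0.91, and the Cr1l probe used fell by 0.31 and 0.33 while its other probe rose by 0.41 and 0.55. Cd59 fell by 0.51 after bur and was at -0.29 after laser, where it did not pass.

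Of the 7 complement receptors tested 4 fell and 0 rose in each comparison with control, where 17.6% and 18.3% of all genes were called lower. Itgb2, the shared chain of the receptors for C3b fragments, fell by 1.24 after laser and 1.18 after bur, and its partners Itgam and Itgax fell by 0.84 and 1.41 after laser and by 0.69 and 1.48 after bur. The probe used for Cr2, the receptor on B cells, had a signal well above background on none of the laser arrays, where it was at least 4.15-fold lower than in control bone, while a further Cr2 probe was at -1.46 after laser and -0.87 after bur and did not pass. C3ar1 and C5ar2, the other receptors for small complement fragments, were at 0.33 and -0.22 after laser and at 0.51 and -0.24 after bur, and did not pass. Their further probes differ from these: a C3ar1 probe was at 0.92 after laser, where it did not pass, and rose by 1.02 after bur, and a C5ar2 probe was at 0.22 after laser, with the opposite sign, and did not pass.

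**Figure D4:**
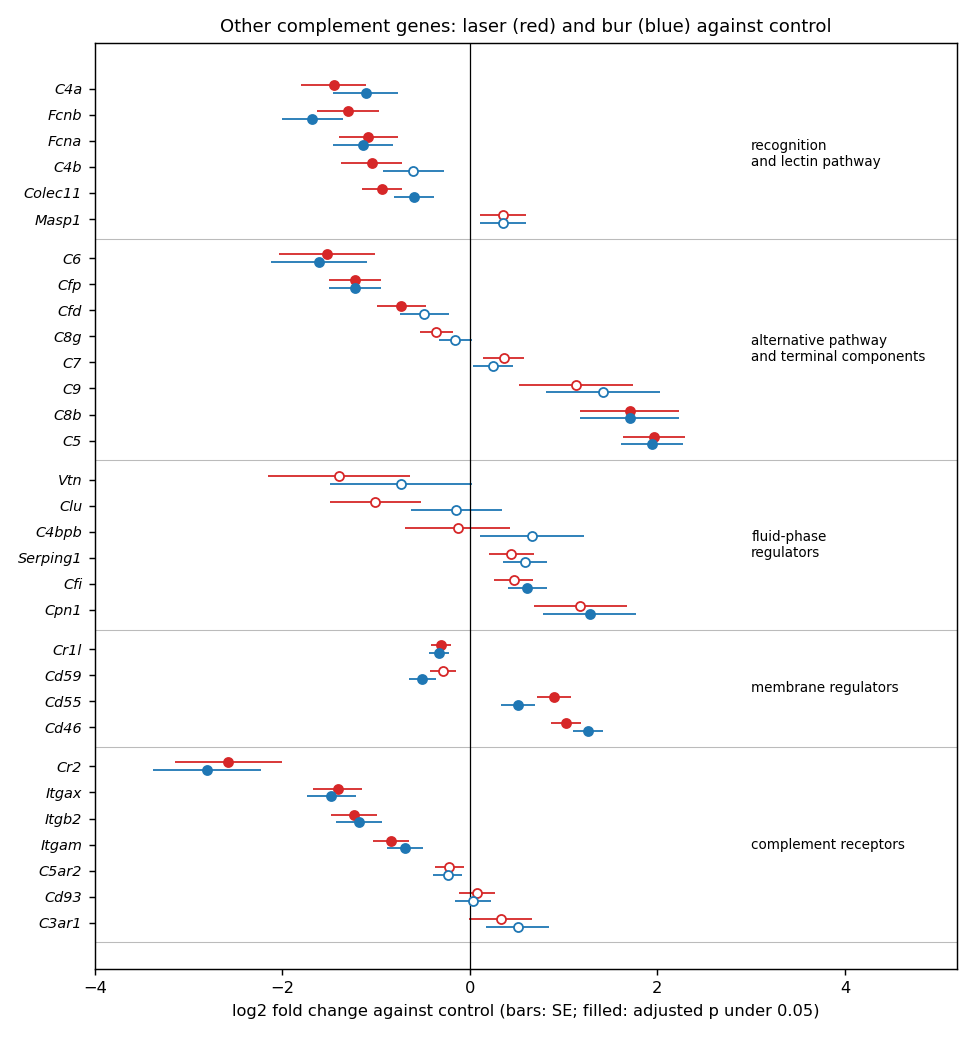
Log2 fold change with SE of the 31 tested genes of 5 other complement lists, laser (red) and bur (blue) against control; filled points have an adjusted p under 0.05. C5 and C8b lie to the right in both comparisons, and most genes of the recognition and receptor lists lie to the left.

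Of 14 tested cytokines and transcription factors known to induce complement genes, 6 rose after laser, 7 rose after bur, and 0 fell, where 32.2% and 32.7% of all genes were called higher. At an unadjusted p under 0.05, 0 were lower after laser and 1 after bur. Lif rose by 1.82 and 1.60, Stat3 by 0.93 and 0.90, Cebpb by 0.64 and 0.84 and Nr1h4 by 1.39 and 1.40. The further Cebpb probe was at 0.21 after laser and 0.11 after bur and did not pass, and the laser call of Cebpb was lost in 6 of 15 other settings and in 4 of 12 fits without 1 array. Il6 and Il1b, named after their values were seen, rose by 1.60 and 1.45 after laser and by 1.60 and 1.34 after bur. The Il1b call was lost in 4 of 12 fits without 1 array after laser and in 6 after bur, and in 4 and 7 of 15 other settings.

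Markers of the cell types that make complement were read in the same comparisons. Of 10 tested macrophage markers 4 fell and 2 rose in each comparison with control. Of all genes, 17.6% were called lower and 32.2% higher after laser, and 18.3% and 32.7% after bur. The median log2 difference of these markers was 0.13 after laser and 0.22 after bur, beside 0.21 and 0.23 for all genes. Csf1r fell by 0.77 after laser and 0.81 after bur and Mrc1 by 1.28 and 1.56. Mertk rose by 0.96 and 0.83, and Cd68 was at 0.16 and 0.25, where it did not pass. The log2 of the summed macrophage signal ranged from 5.48 to 5.85 in control, 5.51 to 6.15 in bur and 5.70 to 5.90 in laser bone. Marco, a further macrophage marker, was well above background on 0 arrays. The part of these cells in the C1q values was not tested.

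Adipocytes also make C3. Of 5 tested adipocyte markers 4 fell after laser and 5 after bur, where 17.6% and 18.3% of all genes were called lower. Adipoq fell by 2.58 and 2.28 on the log2 scale. The log2 of the summed adipocyte signal ranged from 3.96 to 4.53 in control, 2.00 to 3.49 in bur and 2.49 to 3.42 in laser bone. Neither treated range overlapped with control. Among single genes, 48.6% after laser and 46% after bur had groups without overlap. Also apart was the osteoblast and osteocyte sum (log2), at most 9.79 in control and at least 10.18 in bur and 10.56 in laser bone. The part of adipocytes in the C3 difference was not tested. Among 8 hepatocyte markers Alb, Apob, Cyp2e1 and Apoh were well above background on 0 arrays. Of the 3 tested 1 rose after laser and 2 after bur, where 32.2% and 32.7% of all genes were called higher.

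The further marker counts stand beside 17.6% of all genes called lower and 32.2% higher after laser, and 18.3% and 32.7% after bur. Of 8 neutrophil markers 4 fell after laser and 3 after bur, and S100a8 was at -0.27 and -0.41, where it did not pass. Of 7 erythroid markers 5 fell in each comparison. Of 10 fibroblast and periosteum markers 3 rose after laser and 4 after bur, of 8 osteoblast and osteocyte markers 8 and 7, and of 6 endothelial markers 1 and 2, with 1 lower in each. The fibroblast and periosteum counts and the endothelial counts of higher genes were near or below the shares of all genes. The part of these lists in the complement values was not tested.

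The authors' deposited table of laser against control has 3 of the 9 members at an adjusted p under 0.05, with log2 fold changes of -1.71 for C3, -0.84 for C1qa and -0.76 for C1r. The authors' deposited table of bur against control has 2, with -1.56 for C3 and -0.67 for C1qa. In the authors' deposited table of laser against bur 0 members reach it, and Cfb has -0.60.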

How the data were processed

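Spots were quantified as intensity values by Agilent Feature Extraction 11.0.1.1, per the headers of the deposited array files, and the processed signal used here has had its background removed. A second deposited table holds the authors' log2 values after quantile normalization. For each comparison the authors deposited log2 fold changes and p-values per probe. The sources used here do not state the model behind them. A further 36 columns of single-sample values in the comparison tables were not used.

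Processed signals were log2 transformed, control and outlier spots were left out, spots of a probe were averaged, and each array's 75th percentile was subtracted. The number of arrays limits the precision. Probes well above background on at least 4 of 12 arrays were kept, with 1 probe per gene (the brightest), which left 22979 genes. Gene names came from RefSeq (GRCr8) by accession for 21184 probes (46.5%) and otherwise from the files, where they can be old. Probe positions follow the array's own annotation (RGSCv3.4), and upstream sequences are from RefSeq on GRCr8.

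One limma 3.58.1 model (R 4.3.3) held the 3 groups, p-values were adjusted over all genes (Benjamini-Hochberg), and the fit was checked on simulated data. Members, gene lists and marker lists (macrophage, neutrophil, fibroblast and periosteum, osteoblast and osteocyte, endothelial, hepatocyte, adipocyte, erythroid) were chosen with earlier results of these data known, and 1 listed complement gene is not reported here. All members are named, and of each other complement list up to 4 genes with the smallest adjusted p among those that passed. Of each marker list, genes are named from its first 2 and the 2 with the smallest adjusted p. Single values were compared by two-sided exact permutation of 4 against 4 arrays (70 assignments). A probe dim on all arrays of a group is given as a bound. Alternatives changed the normalization, background correction, filter, probe rule, samples, slide and replicate blocks, variance model and array weights, or left out 1 array. Differences between subunits within an array were added after seeing the data.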

Additional observations from a re-analysis of the deposited data

Results flagged for a closer look

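Among 39 groups of 4 arrays checked for a sample far from the others, 2 had one, and chance alone gives such a sample in about 1 in 20 groups. C3 was 3.22 in bur replicate 3, while the other bur arrays lay between 1.94 and 2.06, so the gap to the nearest took up 0.907 of the range of the group. That array was still below every control array, and without it the C3 difference from control was -1.61. C1qc was 1.58 in laser replicate 4, while the other laser arrays lay between 2.30 and 2.43, a gap of 0.842 of the range. The same array had the lowest C1qa, C1qb, C1r, C1s, C2 and Cfb values of its group and the highest C3 and C5ar1 values.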

How the results depend on the processing

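C3 kept its call and its direction after laser and after bur under all 15 other settings and in all 12 fits that left out 1 array, with log2 differences from -1.71 to -1.15 after laser and from -1.62 to -0.99 after bur. The count of members called after laser, 2 in the main fit, was 1 with no filter, with slide as a random block and with treated arrays of slide 1 only, and ranged from 1 to 3 without 1 array. The count after bur, 1 in the main fit, was 2 with quantile normalization, with the percentile taken only over probes detected on every array, and with the authors' deposited values. It was 3 with treated arrays of slide 1 only, and ranged from 1 to 2 without 1 array. Other complement genes called after laser, 17 in the main fit, were 11 with treated arrays of slide 2 only, and those called after bur, 18 in the main fit, ranged from 11 to 19 without 1 array. Signs turned with the mean of a gene's probes for Cr1l (0.048 after laser, 0.11 after bur) and for Cd55 after bur (-0.36), and with the authors' values for Cd55 after bur (-0.075); their probes disagree. C1qc minus C1qa after laser was 0.35 with the authors' values. The causes of these shifts were not tested. Between laser and bur 0 members and 0 other complement genes were called in any setting, and slide as a random block was not run there.

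Whether replicate numbers pair the arrays is not settled. Same-numbered arrays had correlations of residuals from 0.05 to 0.58, not all above 0.1. The best-matching control array had the same number for laser replicates 1, 2 and 3 and for bur replicates 1, 2 and 4. For laser replicates 1, 3 and 4 the best-matching bur array had the same number. With replicate number as a block 2, 1 and 0 members were called after laser, after bur and between them, as in the main fit, with 19, 20 and 0 other complement genes, and 12545 genes in all after laser in place of 11446.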
